A study of Mus musculus with 14 samples.

Results

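The 35 genes described here carry out or time the cell division cycle in mouse, and they were measured in a study of hepatic stellate cells, the vitamin A-storing cells that lie along the liver sinusoids. They were chosen by name, as a set of cyclins, cyclin-dependent kinases, replication proteins and mitotic proteins, and all 35 were found among the 35171 gene rows of the bulk tables and the 28692 of the single-cell matrix. Stellate cells of the strain labelled Balbc, for which no sort is described, were plated in medium with 10% serum for 5 h and then held in 0.1% serum. Cultures of 24 h gave 3 libraries with 10 µM UDP-glucose, the nucleotide sugar that activates the receptor P2Y14 (the titles of these 3 say only UDP), and 3 control libraries. Freshly isolated, unplated stellate cells, called quiescent by the submitters, gave 4 bulk libraries and were sorted for vitamin A and TdTom. Uninjured whole liver gave 3. Quiescent cells and liver came from mice labelled LratCre+, TdTom+ in C57BL/6J, in which Cre driven by the stellate gene Lrat switches on the red fluorescent protein TdTom. One further library profiled single cells of a normal C57BL/6 liver. No sample carries liver damage, and the labels do not tie each library to its own animal or culture. All p-values therefore rest on the spread among these libraries, which may be technical.

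A cell that enters the cycle first makes D-type cyclins, which join the kinases Cdk4 and Cdk6 and start to release the E2F transcription factors from the Rb protein; E-type cyclins with Cdk2 complete that step. The Mcm proteins are loaded on replication origins with the help of Cdc6 and form the helicase that opens DNA in S phase. A second wave of genes, needed to condense and separate chromosomes, is switched on late in the cycle by the MuvB complex with B-Myb and Foxm1, and is held off in resting cells by the DREAM complex. In the injured liver stellate cells can become dividing, scar-forming myofibroblasts, and in the healthy liver they are regarded as resting.

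The bulk values are TPM, which scale each transcript's abundance by its length and each library to the same total, so the sequencing depth of these libraries is unknown. The stellate label held up against its markers. Lrat, the enzyme that stores vitamin A as ester, averaged 87.2 ± 11.2 TPM in control cultures (SD, n = 3), 1089 ± 205 TPM in quiescent cells (n = 4) and 1.05 ± 0.388 TPM in liver (n = 3). Acta2, the smooth muscle actin of activated stellate cells, averaged 264 ± 10.1 TPM in control cultures and 12.0 ± 7.10 TPM in quiescent cells. Markers of other cells differed between the groups as well. The 10 Kupffer cell markers summed to 0.429 to 1.15 TPM in control cultures, 89.5 to 186 TPM in quiescent cells and 57.2 to 105 TPM in liver, and Clec4f and Vsig4 were at 0 in every control culture. The 11 measured sinusoidal endothelial markers summed to 589 to 619 TPM in control cultures, 1520 to 2105 TPM in quiescent cells and at most 80.6 TPM in liver. Eng made up most of that sum in control cultures (550.5 TPM on average) and in quiescent cells (1157 TPM on average). Without Eng the other markers summed to 49.2 to 53.0 TPM in control cultures and 359 to 866 TPM in quiescent cells. Stab2 was at 0 in the control cultures. In a bulk library, fewer cells of a type and less RNA per cell cannot be told apart.

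**Figure D1:**
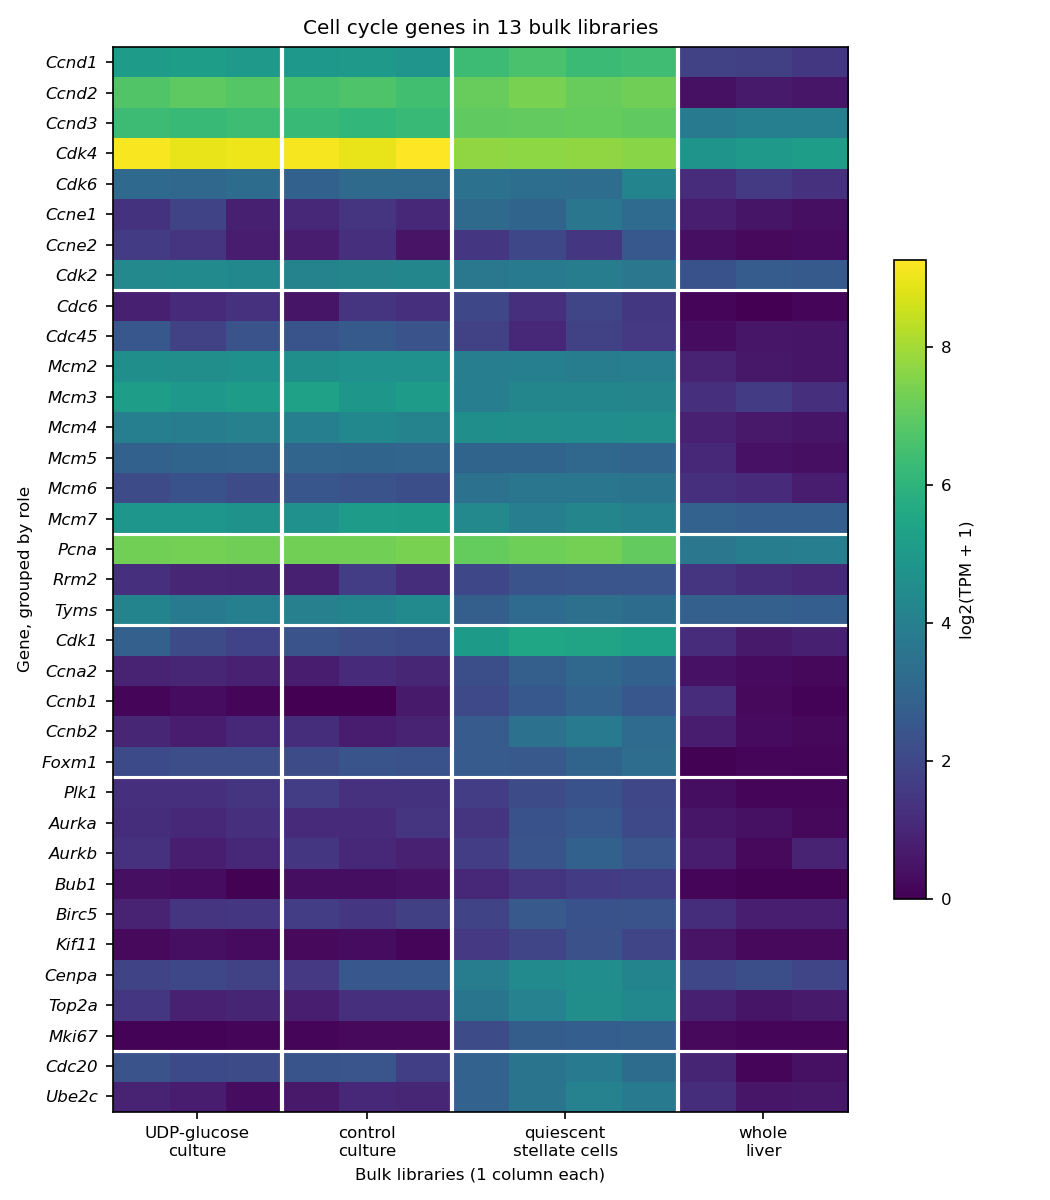
Levels of the 35 cell cycle genes as log2(TPM + 1) in the 13 bulk libraries, 1 column per library and 1 row per gene, with white lines between groups and between roles. The 16 mitotic genes in the lower 3 blocks are brightest in the 4 quiescent libraries, while Cdk4 is brightest in the 6 cultures and every liver column is dark in most rows.

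Of the 35 genes 28 averaged at least 1 TPM in UDP-glucose cultures, 27 in control cultures, 35 in quiescent cells and 12 in liver. The level of the whole set was set by a few genes. In quiescent cells it was led by Cdk4, the kinase partner of the D cyclins, at 205 ± 6.71 TPM, and Pcna, the sliding clamp of the replication fork, at 142 ± 13.7 TPM. The 3 D cyclins had 148 ± 14.0 TPM (Ccnd2), 130 ± 2.58 TPM (Ccnd3) and 84.6 ± 7.73 TPM (Ccnd1). Of the 16 genes with mitotic roles, Cdk1, the kinase that drives entry into mitosis, was the most abundant there, at 38.0 ± 4.93 TPM. The centromeric histone gene Cenpa followed at 18.4 ± 3.82 TPM and Top2a, the topoisomerase that untangles replicated DNA, at 17.4 ± 5.07 TPM. The lowest was the checkpoint kinase gene Bub1, at 1.78 ± 0.557 TPM. Summed by role, the 8 G1 cyclin and kinase genes reached 782 ± 51.5 TPM in control cultures, 603 ± 18.3 TPM in quiescent cells and 55.2 ± 6.02 TPM in liver. The 9 genes of mitotic kinases, spindle and chromosome summed to 12.1 ± 1.42 TPM in control cultures, 60.7 ± 15.1 TPM in quiescent cells and 6.12 ± 0.782 TPM in liver. This group and the G1 group were thus ordered differently across the 3 sources, a difference that rested on Cdk4. Cdk4 averaged 556 TPM in control cultures, 205 TPM in quiescent cells and 31.1 TPM in liver. Of the other G1 genes only Cdk2 was also highest in control cultures (17.4 beside 12.7 TPM in quiescent cells).

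The mitotic genes varied more between quiescent libraries than the rest of the set. Their median coefficient of variation over the 4 libraries was 28.8%, against 9.64% for the other 19 genes and 11.6% for all genes of at least 1 TPM. The same order held in control cultures (22.0% for 9 mitotic and 11.1% for 18 other genes) and in UDP-glucose cultures (15.5% and 8.18%). In quiescent cells the mitotic genes were also lower, with a median level of 5.63 TPM beside 9.27 TPM for all 35. These variations were not matched for level. Between quiescent libraries the mitotic genes also moved together. Summed over the 16 genes, libraries 1 to 4 held 102, 154, 182 and 149 TPM. Library 1 was the lowest for 15 of the 16 and library 3 the highest for 11, while among 12931 genes library 1 was the lowest for 21.2% and library 3 the highest for 21.9%. Kupffer marker sums in libraries 1 to 4 were 174, 89.5, 151 and 186 TPM and endothelial sums 1549, 2105, 1664 and 1520 TPM. Library 3 was highest and library 1 lowest for the mitotic sum. For the endothelial sum these were libraries 2 and 4, and for the Kupffer sum libraries 4 and 2. The part of Kupffer and endothelial cells in the spread was not tested. In liver, library 1 was the highest for 13 of the 16 mitotic genes, with a sum of 12.8 TPM beside 7.65 and 7.68 TPM in libraries 2 and 3, although it was the lowest liver library for 79.1% of all genes.

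The mitotic genes also shared promoter letters that their grouping did not use. RefSeq promoter windows on GRCm38.p6, from 250 bases before to 50 after a gene's start, were matched by symbol for 28 of the 35 genes. Ccna2, Ccnd1, Ccnd2, Ccne2, Mcm4, Foxm1 and Aurkb had no match. Windows were searched on both strands, with overlaps allowed, for the cell cycle genes homology region (CHR, written TTTGAA or TTCGAA), through which the MuvB core of DREAM binds, for the NF-Y box CCAAT, and for E2F sites (TTTCCCGC, TTTCGCGC, TTTGGCGC or TTTGCCGC). A CHR stood in 11 of 13 mitotic promoters (84.6%), 3 of 15 promoters of the other members (20%) and 19.2% of the 32851 promoters of the table. CHR and CCAAT stood together in 11 of 13 mitotic promoters, 3 of 15 others and 7.52% of all. E2F letters went the other way, with 1 of 13 mitotic promoters, 6 of 15 others (40%) and 2.26% of all. A match of these short strings describes the window and shows no binding. Shown are the members with a window whose log2 change in control cultures against quiescent cells was lowest (Cdk1, Top2a, Ube2c) or highest (Cdk4, Tyms and Mcm3, the last not called), since they stand at the ends of the change described next. Capitals mark CHR, CCAAT and E2F matches on either strand, and each sequence runs 5′ to 3′ along the gene's strand.
Cdk1 (chr10:69352863-69353162, minus strand): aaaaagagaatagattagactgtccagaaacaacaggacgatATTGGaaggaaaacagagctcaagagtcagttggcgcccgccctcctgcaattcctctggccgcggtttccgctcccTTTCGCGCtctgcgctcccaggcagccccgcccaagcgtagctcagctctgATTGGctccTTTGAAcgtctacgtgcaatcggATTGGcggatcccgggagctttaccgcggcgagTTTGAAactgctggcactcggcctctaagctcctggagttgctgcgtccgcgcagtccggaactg
Top2a (chr11:99024140-99024439, minus strand): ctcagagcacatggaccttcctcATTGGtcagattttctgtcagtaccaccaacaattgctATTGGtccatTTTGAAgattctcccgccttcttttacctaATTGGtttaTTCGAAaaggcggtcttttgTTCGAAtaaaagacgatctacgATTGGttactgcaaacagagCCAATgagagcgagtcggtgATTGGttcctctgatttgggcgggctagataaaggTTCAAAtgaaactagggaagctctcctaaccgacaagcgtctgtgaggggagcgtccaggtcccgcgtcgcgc
Ube2c (chr2:164769679-164769978, plus strand): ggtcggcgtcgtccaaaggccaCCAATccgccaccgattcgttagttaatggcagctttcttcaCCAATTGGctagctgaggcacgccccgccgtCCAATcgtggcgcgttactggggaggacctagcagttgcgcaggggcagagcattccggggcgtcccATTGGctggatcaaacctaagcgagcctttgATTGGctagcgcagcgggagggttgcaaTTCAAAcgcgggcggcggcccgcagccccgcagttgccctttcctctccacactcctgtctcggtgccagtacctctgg
Cdk4 (chr10:127063285-127063584, plus strand): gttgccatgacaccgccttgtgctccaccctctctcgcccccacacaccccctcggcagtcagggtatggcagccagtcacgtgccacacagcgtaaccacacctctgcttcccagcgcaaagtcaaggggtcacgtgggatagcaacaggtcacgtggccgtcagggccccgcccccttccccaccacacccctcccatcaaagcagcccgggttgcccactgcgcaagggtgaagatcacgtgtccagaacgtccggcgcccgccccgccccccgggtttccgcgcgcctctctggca
Tyms (chr5:30073576-30073875, minus strand): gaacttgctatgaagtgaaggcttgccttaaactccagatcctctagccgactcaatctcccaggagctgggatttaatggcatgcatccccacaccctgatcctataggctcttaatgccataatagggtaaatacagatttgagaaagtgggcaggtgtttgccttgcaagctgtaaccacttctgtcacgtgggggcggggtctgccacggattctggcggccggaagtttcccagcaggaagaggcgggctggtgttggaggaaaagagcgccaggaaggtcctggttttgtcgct
Mcm3 (chr1:20820263-20820562, minus strand): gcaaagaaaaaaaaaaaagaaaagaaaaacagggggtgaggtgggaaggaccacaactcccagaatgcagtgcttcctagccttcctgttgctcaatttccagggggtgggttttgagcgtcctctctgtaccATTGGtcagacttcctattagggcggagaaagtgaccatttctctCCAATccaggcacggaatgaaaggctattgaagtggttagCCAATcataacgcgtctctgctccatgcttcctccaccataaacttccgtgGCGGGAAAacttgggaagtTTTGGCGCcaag
In these windows Cdk1 held 2 CHR, 3 CCAAT and 1 E2F match. Top2a held 4 CHR and 6 CCAAT matches, and the promoter of Ube2c, a ubiquitin-conjugating enzyme of the anaphase-promoting complex, 1 and 6. The promoters of Cdk4 and Tyms held none of the 3, and that of Mcm3 held 3 CCAAT and 2 E2F matches without a CHR. The mitotic windows without a CHR were those of Ccnb1 and Birc5.

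The comparison of cultured control cells with quiescent cells asks how the cycle genes stand after 24 h in culture. Most mitotic genes fell in culture, while most genes of origin licensing were not called in either direction. Of the 35 genes 17 fell and 2 rose at an adjusted p below 0.05 with at least 1 log2 unit of change, where 31.8% of 12537 genes were called, 13.2% lower and 18.6% higher. After median-of-ratios rescaling 19 of the 35 fell and 1 rose, where 16.2% of all genes fell and 12.3% rose. Quantile normalisation gave 16 and 1, where 14.8% fell and 13.8% rose. Among all called genes the share that rose was 58.6% as deposited, 43.3% after median-of-ratios rescaling and 48.2% after quantile normalisation. The median of the set was -0.87 and that of all genes 0.26 on the log2(TPM + 1) scale, on which all fold changes here stand and which understates the change of low genes. By role, 12 of the 16 mitotic genes fell and none rose, 3 of 8 G1 genes fell and 1 rose, 1 of 8 origin genes fell, and of the 3 genes of replication fork and nucleotides 1 fell and 1 rose. Only 27 of the 35, and 9 of the 16 mitotic genes, averaged at least 1 TPM in control cultures. Ccna2, Ccnb1, Ccnb2, Bub1, Kif11, Mki67, Ube2c and Ccne2 were tested only because of their level in quiescent cells. All of these were called lower, so the number of falls says less than it seems. Groups did not overlap for 31 of the 35, and 70.0% of all genes were as separate. Strain, sort, plating, deposited table and group all differ together here and cannot be told apart.

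Cdk1 (chr10:69335146-69352938, minus strand, GRCm38) had the deepest fall, with 4.14, 3.59 and 3.21 TPM in control cultures against 31.8, 42.3, 41.7 and 36.4 TPM in quiescent cells. Every culture was far below every quiescent library, and the log2 fold change was -3.07 ± 0.129 (SE, adjusted p = 1.19e-07). Top2a had 0.711, 1.42 and 1.43 TPM in control cultures against 11.1, 16.2, 23.2 and 19.1 TPM in quiescent cells (log2 -3.05 ± 0.242, adjusted p = 4.92e-06). Ube2c, which had 0.564, 1.07 and 0.969 TPM in control cultures against 6.62, 10.9, 16.1 and 13.0 TPM in quiescent cells, fell by 2.71 on the log2 scale (SE 0.264, adjusted p = 1.81e-05). For both genes every culture was below every quiescent library, and quiescent library 1 was the lowest of its group. For Mki67, the proliferation antigen Ki-67 that coats mitotic chromosomes, control cultures had 0.102, 0.184 and 0.172 TPM against 3.46, 5.69, 5.86 and 6.24 TPM in quiescent cells. It was near 0 in every culture (log2 -2.43 ± 0.199, adjusted p = 6.12e-06). Ube2c and Mki67 were tested only because of their level in quiescent cells.

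The mitotic cyclins, which activate Cdk1, fell with it. Ccnb1 was at 0, 0 and 0.590 TPM in control cultures against 3.10, 4.85, 6.62 and 4.79 TPM in quiescent cells (log2 -2.29 ± 0.258). Ccnb2 had 1.32, 0.627 and 0.837 TPM in control cultures and 5.25, 9.93, 13.6 and 8.33 TPM in quiescent cells (log2 -2.36 ± 0.275), and Ccna2 fell by 1.83. The kinesin gene Kif11, which pushes spindle poles apart, fell by 1.72, Cenpa by 2.05, the Aurora kinase gene Aurkb by 1.23, Bub1 by 1.08 and Cdc20, the activator of the anaphase-promoting complex, by 1.20. The smallest of these adjusted p-values was 4.68e-05 (Ccnb1) and the largest 0.00384 (Aurkb). Of these genes Ccnb1, Ccnb2, Ccna2, Kif11 and Bub1 were tested only because of their level in quiescent cells, so their p-values add little. The call of Cdc20 was lost without control culture 3 (-0.96), and that of Bub1 after quantile normalisation (-0.93). Without quiescent library 3 or 4 Bub1 fell under the filter and was not tested. Of the mitotic genes, Foxm1, the mitotic kinase genes Plk1 and Aurka, and Birc5, the survivin gene, missed the fold threshold, at -0.59, -0.59, -0.87 and -0.66 with adjusted p between 0.0109 and 0.0220. Groups overlapped for Aurka. Foxm1, the transcription factor of the late wave, kept 3.91 ± 0.442 TPM in control cultures beside 6.54 ± 1.84 TPM in quiescent cells.

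**Figure D2:**
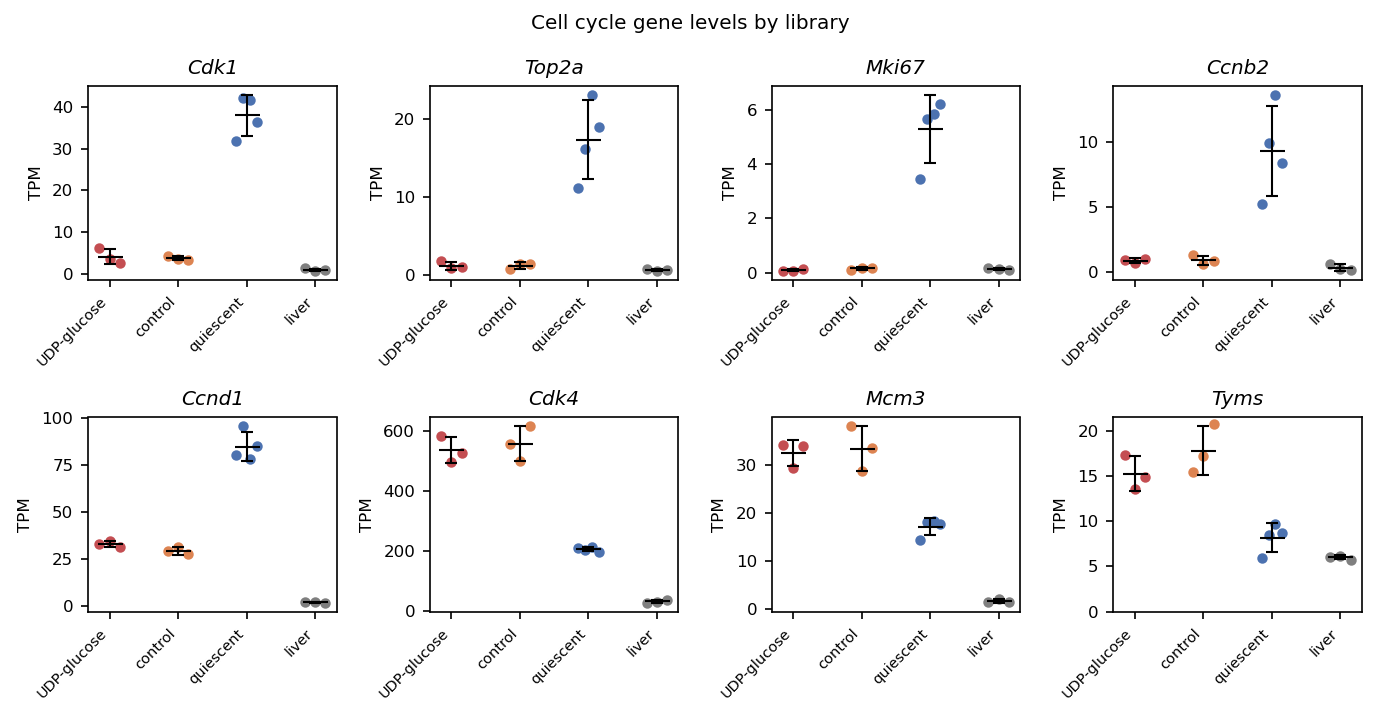
TPM of 8 cell cycle genes in each bulk library (points), with mean and SD (black bars, n = 3, 3, 4 and 3). Cdk1, Top2a, Mki67, Ccnb2 and Ccnd1 are highest in quiescent cells, where Cdk1 averages 38.0 TPM, whereas Cdk4, Mcm3 and Tyms are higher in both kinds of culture than in quiescent cells.

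Among the G1 genes Cdk4 rose, while the D and E cyclins stood lower in culture. Cdk4 (chr10:127063534-127067920, plus strand) had 557, 498 and 614 TPM in control cultures against 209, 203, 212 and 197 TPM in quiescent cells, a rise of 1.43 ± 0.0768 (adjusted p = 4.81e-07). The lowest culture was far above the highest quiescent library. Of the exon bases of Cdk4, 19.7% lie in the model of Tspan31 on the other strand, and no source used here says whether the authors' quantification used strand. Ccnd1 fell to 29.4, 31.7 and 27.5 TPM in control cultures, against 79.9, 95.4, 78.2 and 84.9 TPM in quiescent cells (log2 -1.49 ± 0.0895, adjusted p = 9.27e-07), and 23.4% of its exon bases lie in the model of LTO1. Ccnd2 and Ccnd3 were lower in every culture too but missed the fold threshold, at -0.63 and -0.80, and Ccnd3 passed it after both rescalings (-1.07 and -1.08). Ccne1, the E cyclin that joins Cdk2, fell by 2.08 with 1.10, 1.68 and 1.09 TPM in control cultures against 8.14, 6.93, 11.3 and 8.45 TPM in quiescent cells. Its paralogue Ccne2 fell by 1.05, a call that was lost when control culture 1, control culture 3 or quiescent library 4 was left out (-0.99, -0.89 and -0.83) and after quantile normalisation (-0.93). Cdk2 itself stood at 0.42 and Cdk6 at -0.48, neither called.

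The helicase subunits did not move as one. Mcm6 fell by 1.23 to 4.56, 4.13 and 3.66 TPM in control cultures, against 10.1, 11.4, 11.5 and 10.9 TPM in quiescent cells. Mcm3 had 38.1, 28.8 and 33.5 TPM in control cultures against 14.5, 18.1, 18.3 and 17.8 TPM in quiescent cells, and every culture was above every quiescent library. Its log2 change of 0.92 ± 0.122 stayed under the fold threshold, as did those of Mcm7 (0.80), Cdc45, which joins the Mcm ring in the active helicase (0.90), and Mcm2 (0.71), all 4 with adjusted p of 0.00398 or less. Mcm4 stood at -0.41 and Mcm5 at -0.02, with 7.07 ± 0.190 TPM in control cultures and 7.19 ± 0.362 TPM in quiescent cells. Cdc6, the loader, stood at -0.64, with groups that overlapped. The log2 changes of these 6 Mcm genes, whose proteins form 1 ring, thus ran from -1.23 to 0.92.

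Both enzymes of nucleotide supply passed the test, in opposite directions. Tyms, which makes thymidylate, had 15.5, 17.3 and 20.7 TPM in control cultures against 5.92, 8.42, 9.69 and 8.66 TPM in quiescent cells, a rise of 1.04 ± 0.167 (adjusted p = 0.000445). That rise went under the fold threshold without control culture 3 (0.94), without quiescent library 1 (0.91), and after median-of-ratios or quantile rescaling (0.80 and 0.86). Rrm2, the S phase subunit of ribonucleotide reductase, fell by 1.08 to 0.776, 2.20 and 1.31 TPM in control cultures, against 3.03, 4.23, 4.48 and 4.42 TPM in quiescent cells, and the call was lost without control culture 1 (-0.88). Pcna was not called, at 161 ± 7.59 TPM in control cultures and 142 ± 13.7 TPM in quiescent cells.

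**Figure D3:**
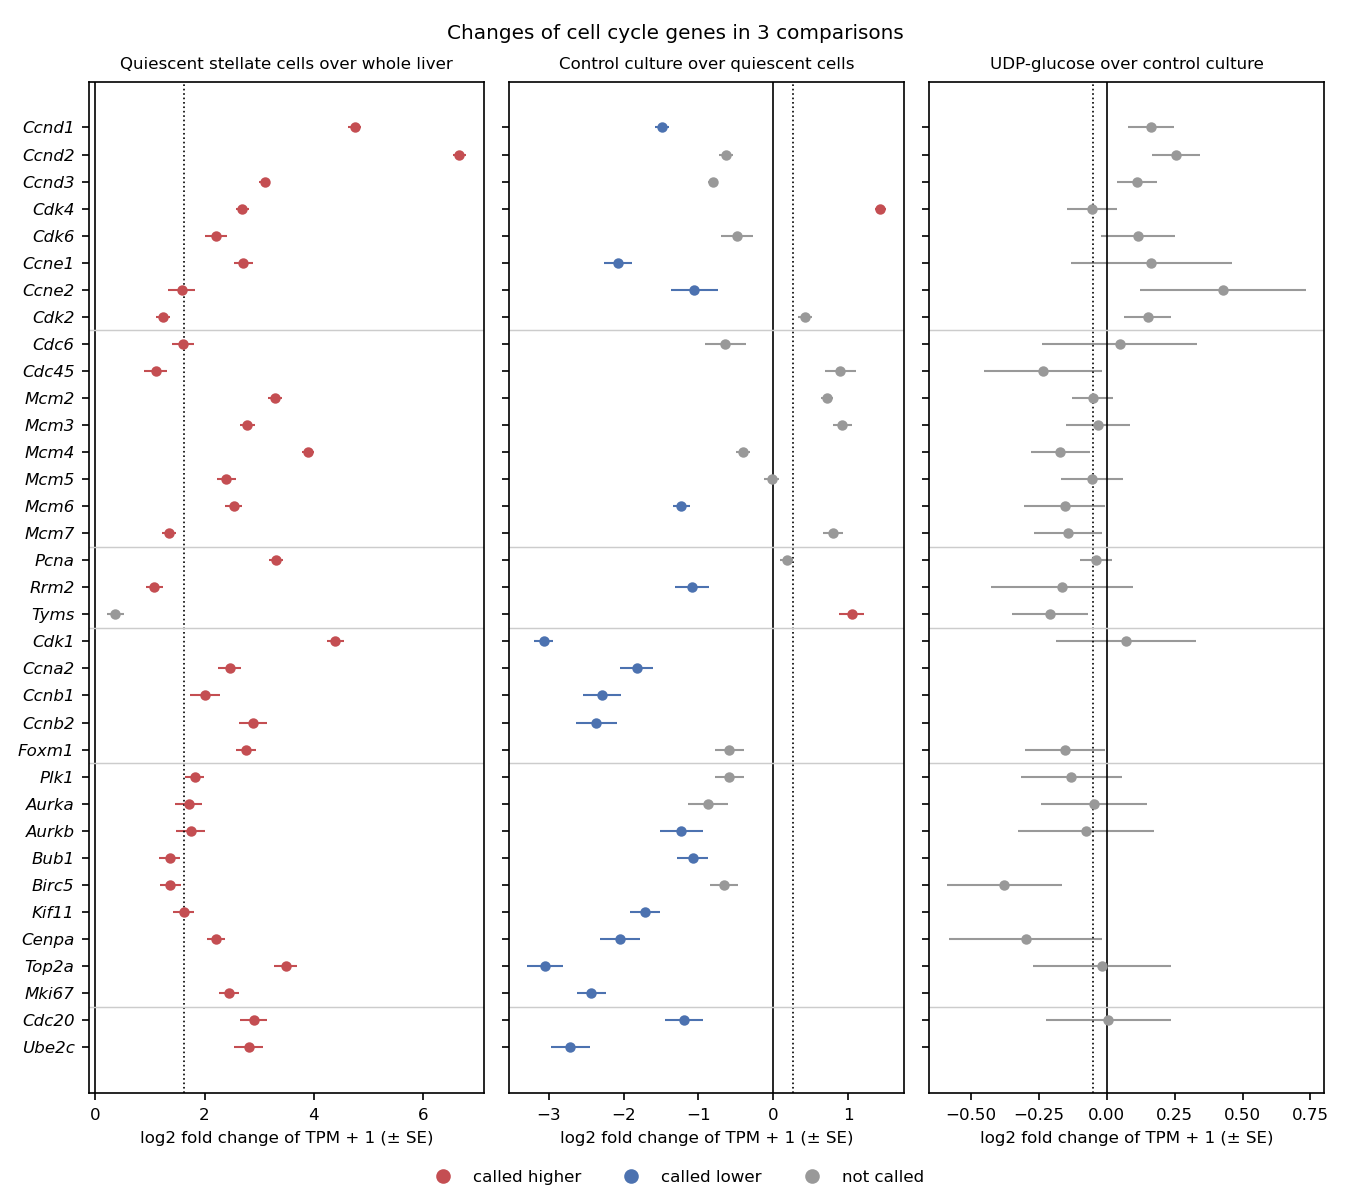
Log2 fold change of TPM + 1 with its standard error for each gene in the 3 comparisons (x axes differ in range); red and blue mark genes called higher and lower, grey those not called, the solid line 0 and the dotted line the median of all genes tested. In the middle panel the mitotic genes lie left of 0, down to -3.07 for Cdk1, and in the right panel all 28 genes tested lie between -0.38 and 0.43.

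Genes that hold the cycle back moved in both directions. Of 7 genes for inhibitors of cyclin-dependent kinases, 3 rose and 2 fell, where 18.6% of all genes rose and 13.2% fell. Cdkn1a, which encodes p21, had 591, 543 and 527 TPM in control cultures against 103, 108, 125 and 93.1 TPM in quiescent cells (log2 2.36 ± 0.0994, adjusted p = 1.22e-07). Cdkn2b, the Cdk4 and Cdk6 inhibitor p15, had 43.6, 43.9 and 36.9 TPM in control cultures against 1.82, 2.87, 3.52 and 2.60 TPM in quiescent cells, the largest rise of the list (3.54 ± 0.165). Cdkn2a rose by 1.49, to 4.97 ± 1.77 TPM in control cultures against 1.09 ± 0.403 TPM in quiescent cells. Cdkn1c, the p57 gene, fell by 1.61, although 30.7% of its exon bases lie in another gene model, and Cdkn2c fell by 1.08. Cdkn1b and Cdkn2d were not called.

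**Figure D4:**
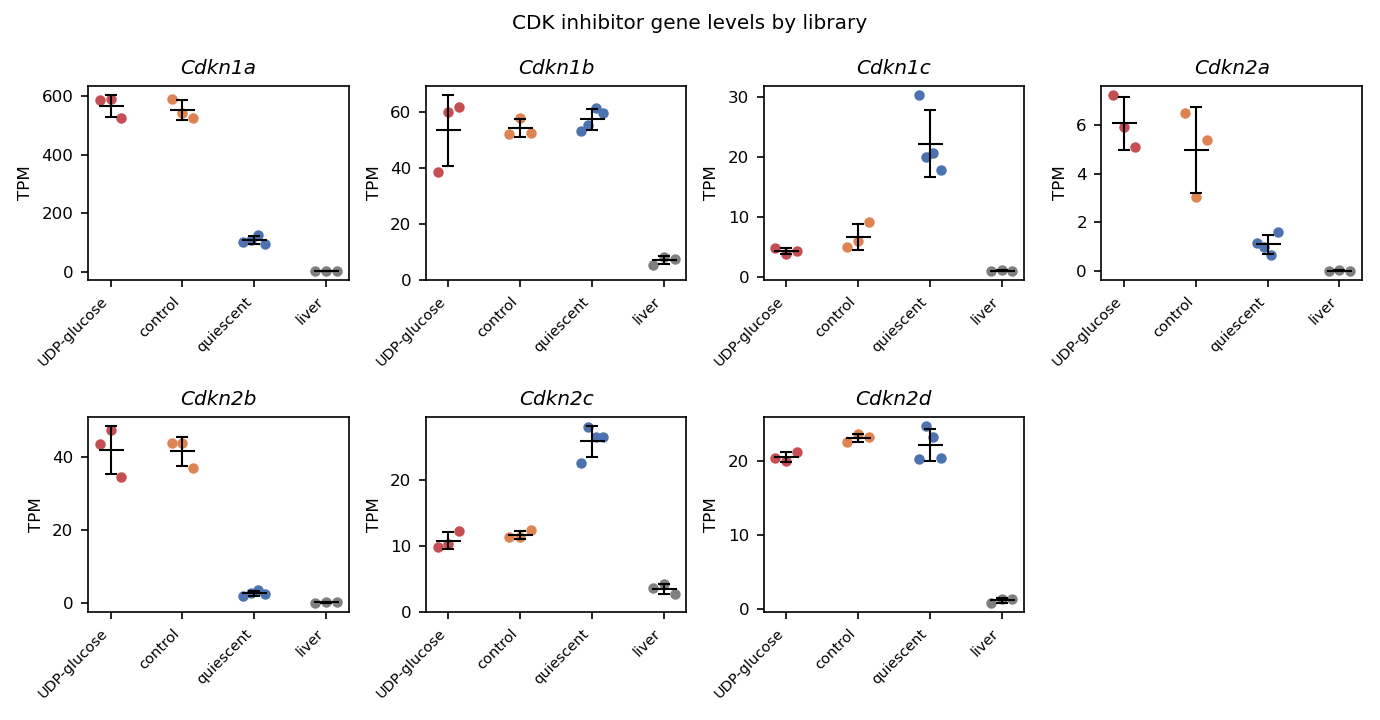
TPM of the 7 genes of cyclin-dependent kinase inhibitors in each bulk library (points), with mean and SD (black bars). Cdkn1a and Cdkn2b are high in both kinds of culture and low in quiescent cells (554 beside 107 TPM and 41.5 beside 2.70 TPM for control cultures beside quiescent cells), while Cdkn1c and Cdkn2c are highest in quiescent cells.

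The other cell cycle lists are read beside the 13.2% of all genes that fell and the 18.6% that rose. Of 12 spindle checkpoint and kinetochore genes 4 fell and none rose, led by Bub1b (-2.08), Nuf2 (-1.90) and Ndc80 (-1.42). These named genes averaged under 1 TPM in control cultures and were tested only because of their level in quiescent cells. Of 12 tested genes for condensin, kinesins and cytokinesis 5 fell and none rose, led by the contractile ring gene Anln (-2.37), the spindle midzone gene Prc1 (-2.21) and the cytokinesis kinesins Kif20a and Kif23 (both -1.87). Of 14 other origin factors none fell and 2 rose, Cdt1, which loads the helicase (1.52), and Gmnn, the geminin gene that blocks Cdt1 (1.19). Among 17 tested genes of Rb, E2F and the DREAM and MuvB complexes, 2 rose and none fell: Lin37 (1.61), a MuvB subunit, and E2f6 (1.38), a repressor of the E2F family. The falls of mitotic genes stood beside the drop of Kupffer markers given above and of dendritic cell and monocyte markers, which summed to 0.427 to 2.38 TPM in control cultures and 18.2 to 31.1 TPM in quiescent cells. Lyz2 made up most of the latter sum (25.3 TPM on average in quiescent cells). Without Lyz2 the list summed to 0.0852 to 0.255 TPM in control cultures and 0.726 to 1.20 TPM in quiescent cells. In the single-cell library Lyz2 was among the leading genes of a Kupffer-like and of the conventional dendritic cell and monocyte-like cluster. Its drop can therefore be assigned to neither class. The part of Kupffer cells, dendritic cells and monocytes in the result was not tested.

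Against whole liver, quiescent stellate cells were higher for nearly the whole set. The 4 quiescent libraries are the same as in the comparison above. Of the 35 genes 34 rose and none fell, where 77.9% of 12643 genes were called, 67.0% higher and 10.9% lower, and 91.1% had groups that did not overlap. Only 12 of the 35 averaged 1 TPM or more in liver, 1 of them mitotic (Cenpa), so 23 were tested only because of their level in quiescent cells, and their number says little. The median of the set was 2.45 and that of all genes 1.62. Among all called genes the share that rose was 86.0% as deposited, 50.6% after median-of-ratios rescaling and 54.7% after quantile normalisation. After median-of-ratios rescaling, which takes most of that shift out, 19 rose and 1 fell, where 26.7% of all genes rose and 26.1% fell. Quantile normalisation gave 18 and 1, where 28.1% rose and 23.3% fell.

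Ccnd2 and Ccnd1 had the largest changes of the set, and Ccnd3 followed further down at 3.10. Ccnd2 had 138, 166, 136 and 150 TPM in quiescent cells against 0.344, 0.588 and 0.462 TPM in liver (log2 6.66 ± 0.120, which is 5.04 above the median of all genes, adjusted p = 3.37e-12). For Ccnd1 the values were 79.9, 95.4, 78.2 and 84.9 TPM in quiescent cells against 2.43, 2.34 and 1.80 TPM in liver (log2 4.75 ± 0.124, 3.12 above that median). Cdk1, at 31.8, 42.3, 41.7 and 36.4 TPM in quiescent cells and 1.24, 0.587 and 0.773 TPM in liver, was 2.77 above that median (log2 4.39 ± 0.153). These 3 were called under both rescalings. Mcm4 (3.89), Top2a (3.48), Pcna (3.31) and Mcm2 (3.28) came next, and the lowest of the called genes were Rrm2 (1.08) and Cdc45 (1.11). Rrm2, Cdk2 and Mcm7 were below 0 after both rescalings, and Birc5 and Cdc45 after quantile normalisation.

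Tyms was the exception. It had 5.92, 8.42, 9.69 and 8.66 TPM in quiescent cells against 6.08, 6.19 and 5.75 TPM in liver, with groups that overlapped, and its log2 change of 0.37 lay 1.25 under the median of all genes. After median-of-ratios rescaling it was called lower (-1.33, adjusted p = 4.3e-05), and after quantile normalisation too (-1.34). Outside the set, Mcm10, an origin factor, was higher in liver, with 1.31 ± 0.775 TPM in quiescent cells and 78.0 ± 16.7 TPM in liver (log2 -5.13), and so was the kinetochore gene Spc24 (-1.60), named after its values were seen. In the other lists, beside the 67.0% of all genes that rose, those higher in quiescent cells were 6 of 6 tested inhibitor genes, 12 of 16 genes of Rb, E2F, DREAM and MuvB, 9 of 14 origin factors, 10 of 11 spindle checkpoint genes and 12 of 12 genes of condensin, kinesins and cytokinesis. After median-of-ratios rescaling, where 26.7% of all genes rose, 4 inhibitor genes were higher, 2 of the Rb and E2F list (and 2 lower), 3 origin factors (and 3 lower), 3 checkpoint genes (and 1 lower) and 9 of the condensin list. The leading genes of those lists were Cdkn1a (5.38), Tfdp2 (2.87), Orc2 (3.18), Bub1b (2.70) and Anln (5.06). Of the condensin list only Smc4 and Ncapd2 averaged 1 TPM or more in liver. The rest of that list, Bub1b and some genes of the other lists were tested only because of their level in quiescent cells. These counts therefore say little. Endothelial marker sums, given above, were higher in quiescent cells than in liver as well, and their part in the result was not tested.

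UDP-glucose for a day left the set without a call. Of the 28 genes tested none passed an adjusted p of 0.05 in limma, where 0.609% of 12161 genes did. At an unadjusted p below 0.05 there was 1 of the 28, beside 10.0% of all genes. After median-of-ratios rescaling and quantile normalisation no gene of the set was called either, where 0.600% and 0.814% of all genes were. The gene at an unadjusted p below 0.05 was Ccnd2, with 105, 123 and 111 TPM in UDP-glucose cultures against 93.5, 104 and 87.4 TPM in control cultures. The lowest treated culture was just above the highest control, and the log2 change of 0.25 had a 95% interval from 0.05 to 0.46 (adjusted p = 0.386). Ccnd1, at 33.0, 34.8 and 31.7 TPM in UDP-glucose cultures and 29.4, 31.7 and 27.5 TPM in control cultures, had an interval from -0.03 to 0.36. For Cdk4, with 583, 496 and 526 TPM in UDP-glucose cultures and 557, 498 and 614 TPM in control cultures, it ran from -0.27 to 0.16, and for Pcna from -0.18 to 0.10. These intervals were narrow, whereas for low genes they were wide. Cdk1, at 6.15, 3.44 and 2.62 TPM in UDP-glucose cultures and 4.14, 3.59 and 3.21 TPM in control cultures, had an interval from -0.53 to 0.67, and Top2a from -0.61 to 0.57. Groups did not overlap for Ccnd2, Cdk2 and Birc5, 3 of 28, beside 16.3% of all genes. Ccna2, Ccnb1, Ccnb2, Bub1, Kif11, Mki67 and Ube2c averaged under 1 TPM in these 6 libraries and were not tested. No gene of the 5 other lists was called. Their most abundant genes had log2 changes of 0.04 (Cdkn1a) and -0.05 (Cdkn1b) among the inhibitors, -0.03 (E2f4) and -0.04 (Tfdp1) in the Rb and E2F list, and 0.35 (Orc4) and -0.04 (Orc3) among origin factors. Bub3 (-0.02) and Mad1l1 (0.13) led the checkpoint list, and Smc4 (-0.04) and Ncapd2 (-0.11) the condensin list. Cdkn1a averaged 568 ± 37.6 TPM in UDP-glucose cultures and 554 ± 33.2 TPM in control cultures.

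The single-cell library gives the cell classes of a normal liver in which molecules of these genes were counted. Free RNA can add counts to cells that do not express a gene, so for Ccnd2 and Mki67 the share in a low class is given too. It had 5063 barcodes with a median of 1983 unique molecular identifiers (UMIs, counts of captured molecules), and 4808 cells were kept. They were clustered without the genes of the set, of the other cell cycle lists and histone genes with Hist names. Other genes tied to division, such as Hmgb2 and Stmn1, were not removed, so the clusters are not fully independent of the cycle. Clusters were named from their markers as stellate-like (366 cells), sinusoidal endothelial-like (2392), Kupffer-like (426), hepatocyte-like (491), T cell-like (374), B cell-like (258), plasmacytoid dendritic cell-like (74), conventional dendritic cell and monocyte-like (108) and erythroid-like (108). The other 3 clusters stayed unnamed and were led by Gzma and Ccl5 (98 cells), by Col14a1 and Vipr1 (49 cells, with genes of Kupffer and of stellate cells) and by Jchain and Igha (64 cells, with a median of 1 plasma cell marker per cell). There is 1 library, so nothing was tested, and the exact 95% intervals cover counting error only.

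D cyclins and Cdk4 were spread over many cell types. Ccnd2 was found in 275 of 366 stellate-like cells (75.1%, 70.4 to 79.5%) at 599 CPM (UMIs scaled to a common total), in 69.5% of T cell-like cells at 602 CPM and in 54.7% of endothelial-like cells at 496 CPM. In hepatocyte-like cells, where the median depth was 1861 UMIs beside 3095 in stellate-like cells, the share was 5.91% at 23.6 CPM. With every cell thinned to 1000 UMIs the shares were 45.9% in stellate-like and 2.96% in hepatocyte-like cells. Ccnd1 was highest in plasmacytoid dendritic cell-like cells (481 CPM) and next in endothelial-like cells (227 CPM), with 130 CPM in stellate-like and 22.9 CPM in hepatocyte-like cells. Cdk4 gave 149 CPM in stellate-like, 209 CPM in endothelial-like and 47.3 CPM in hepatocyte-like cells.

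Mitotic transcripts were concentrated in few cells, and few of those were stellate-like. Of 1864 UMIs of the 16 mitotic genes, 1000 (53.6%) lay in the 52 cells that held UMIs of at least 3 of these genes. Among those 52 were 17 T cell-like cells (4.55% of that class, 2.67 to 7.18%), 17 cells of the unnamed Jchain cluster (26.6%, 16.3 to 39.1%), 11 Kupffer-like cells (2.58%, 1.30 to 4.57%) and 3 conventional dendritic cell and monocyte-like cells. These classes held only for clusters made without the listed cell cycle and histone genes. With those genes kept, 35 of the 52 cells fell into 1 unnamed cluster of 36 cells, led by Hist1h2ap, Hmgb2, Stmn1, Birc5 and Top2a, and 1 of 343 T cell-like and 1 of 16 plasma cell-like cells held at least 3 of the genes, while Kupffer-like cells still had 11. Endothelial-like cells gave 2 of 2392, hepatocyte-like cells 1 of 491 and stellate-like cells 1 of 366 (0.273%, 0.00692 to 1.51%). None was found among 258 B cell-like, 108 erythroid-like or 74 plasmacytoid dendritic cell-like cells. A count of 0, taken as fewer than 3 cells, allows a share of up to 1.16% among B cell-like cells, where the exact interval reaches 1.42%. For the erythroid-like class these limits are 2.78% and 3.36%, and for the plasmacytoid class 4.05% and 4.86%. Another 42 cells held exactly 2 of the genes and 7 exactly 3. The 52 cells had a median of 4286 UMIs and cells without any mitotic UMI 1917. Thinned to 1000 UMIs a cell, 29 cells still held at least 3 of the genes, among them 11 T cell-like cells (2.97%), 11 of the Jchain cluster (17.2%), 5 Kupffer-like cells (1.20%) and no stellate-like cell. No doublet caller was applied, and the part of doublets was not tested.

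The cells with at least 3 mitotic genes were also rich in replication genes, which did not choose them. Rrm2 reached 177 CPM in them against 2.14 CPM in the other cells, Mcm5 120 against 8.94 CPM, Tyms 97.8 against 5.99 CPM, and Pcna 260 against 41.3 CPM. Ccne1 and Ccne2 followed, at 52.7 against 1.70 CPM and 60.2 against 1.34 CPM. The D cyclin Ccnd2 did not, with 128 CPM in these cells against 378 CPM in the others, and Cdk4 was close in both over all classes, at 181 against 144 CPM. By class, Cdk4 had 350 against 112 CPM in the Jchain cluster. It had 142 against 138 CPM in T cell-like and 88.4 against 88.2 CPM in Kupffer-like cells.

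A single mitotic UMI marked far more cells, and in endothelial-like cells most of these rested on Cenpa. At least 1 such UMI was found in 17.8% of stellate-like cells, 17.2% of endothelial-like, 17.1% of Kupffer-like, 18.2% of T cell-like and 7.74% of hepatocyte-like cells. Cenpa alone gave 699 of the 1864 UMIs, 397 of them in endothelial-like cells. Without it the shares were 9.29% in stellate-like (6.52 to 12.7%), 3.09% in endothelial-like (2.44 to 3.87%), 10.3% in Kupffer-like, 11.5% in T cell-like and 2.85% in hepatocyte-like cells. Erythroid-like cells kept 25.9%, where Ube2c made up 45 of 50 mitotic UMIs. In stellate-like cells the 79 mitotic UMIs came mainly from Cenpa (36), Mki67 (19, in 19 cells) and Cdk1 (10, in 10 cells). Mki67 thus had a UMI in 5.19% of stellate-like cells (3.15 to 7.99%), 3.99% of Kupffer-like and 4.01% of T cell-like cells, beside 0.0836% of endothelial-like (0.0101 to 0.302%, median depth 1823 UMIs) and 0.204% of hepatocyte-like cells. Thinned to 1000 UMIs, the share was 1.65% in stellate-like and 0.0424% in endothelial-like cells. Ccnb2, Aurkb, Bub1, Kif11, Cdc20 and Ube2c had no UMI in any of the 366 stellate-like cells, which, taken as fewer than 3 cells, allows a share of cells with a UMI of up to 0.820% for each and sets no limit on cells that express them.

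**Figure D5:**
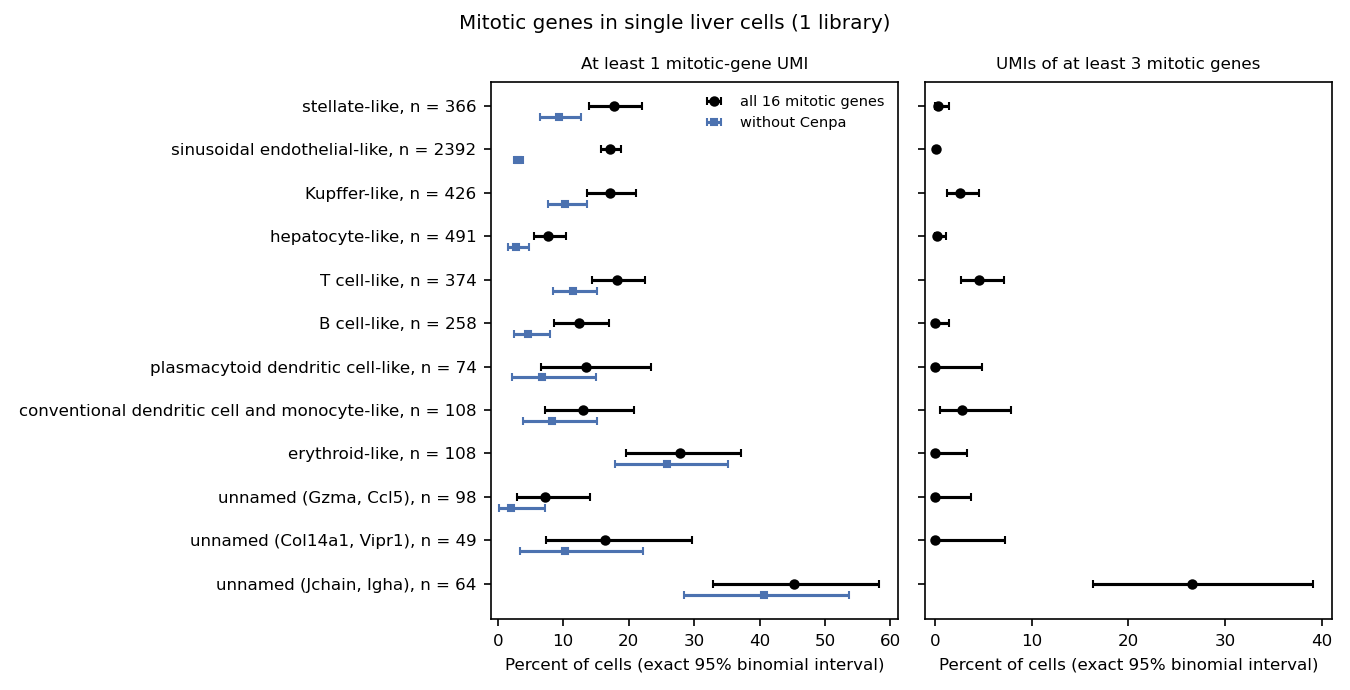
Percent of cells with at least 1 UMI of the 16 mitotic genes (left, black, and without Cenpa in blue) and with UMIs of at least 3 of them (right), by class in the 1 single-cell library, with exact 95% binomial intervals. On the right the unnamed Jchain cluster (26.6%) and T cell-like cells (4.55%) stand highest and stellate-like cells are at 0.273%.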

How the data were processed

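Bulk RNA-seq libraries (13) and 1 droplet single-cell library of mouse liver were analysed. The authors deposited TPM per gene in 3 tables, 1 for quiescent cells, 1 for liver and 1 for both cultures, and the submitters' processing notes name bcl2fastq 2.19, kallisto 0.44.0, DESeq2 and Cell Ranger with the builds GRCm38 and mm10. The deposited single-cell values are counts of UMIs per gene and barcode. TPM keeps no depth, sums ran from 998190 to 999797 per library, and 26 rows named by calendar dates were left out.

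Bulk comparisons used limma 3.58.1 (R 4.3.3) on log2(TPM + 1) with trended moderated variances, for genes averaging 1 TPM or more across both groups' libraries, two-sided, with Benjamini-Hochberg adjustment over all of them. A call needed an adjusted p below 0.05 and, except for UDP-glucose, a log2 fold change of 1 or more in size. Fits were tested on simulated data. Single cells (scanpy 1.11.5, Python 3.11.15) needed at least 500 UMIs, 200 genes and at most 20% mitochondrial UMIs, which left 4808 of 5063 barcodes with a median of 1978 UMIs. Clusters (2000 variable genes without the listed cell cycle genes and Hist genes, 30 components, 15 neighbours, Leiden resolution 1) took a name where at least 3 markers of a type stood among their 50 leading genes and at least 2 times as many as of the next type, with a median of at least 2 of them per cell, a rule set after seeing the data. Rebuilt names may differ from the authors'. Gene positions and exon overlaps came from GENCODE vM21 on GRCm38, where all 35 genes were found. Pseudogene copies of Ccnb1, Ccnb2, Ccnd3, Pcna and Tyms in the tables reached at most 2.45 TPM (Pcna-ps2).

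Members, role groups, other lists and markers were chosen with earlier results of these data known. The named genes are all 35 members and, from each other list, up to 3 called genes with the largest change, or the 2 most abundant where none was called. Alternatives covered the pseudocount, the filter, rescaling, the fit, the fold threshold, left-out libraries and the single-cell filters.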

Additional observations from a re-analysis of the deposited data

Results flagged for a closer look

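In the 4 quiescent libraries, 3 of the 35 genes had 1 library further from the other 3 than Dixon's 95% limit allows, where chance gives about 1 in 20. Cdk6 reached 17.0 TPM in library 4, next to 9.90 TPM in the nearest library. Mcm3 was at 14.5 TPM in library 1, next to 17.8 TPM, and Mcm5 was at 7.74 TPM in library 3, next to 7.05 TPM.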

How the results depend on the processing

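Counts of members called were within 1.5 times those reported under the other alternatives run, with the following exceptions. In quiescent cells against liver 34 genes rose, and 20 did with a pseudocount of 5 TPM, 19 with a filter of 5 TPM (15 genes were then not tested), 19 after median-of-ratios rescaling and 18 after quantile normalisation, with 1 gene lower under each rescaling. Signs reversed for Cdk2 (-0.48 and -0.50), Mcm7 (-0.41 and -0.39), Rrm2 (-0.28 and -0.47) and Tyms (-1.33 and -1.34) under median-of-ratios and quantile rescaling, and for Cdc45 (-0.036) and Birc5 (-0.10) under the second. Leaving out single libraries gave 33 to 34 higher, with 33 where only 34 genes were tested (without quiescent library 2, 3 or 4). In control cultures against quiescent cells 2 genes rose, and 1 did with a pseudocount of 5 TPM or either rescaling, 7 without a fold threshold, and 1 to 3 with a library left out (1 without control culture 3 or quiescent library 1). The 17 falls became 7 with a pseudocount of 5 TPM, 9 with a filter of 5 TPM (13 genes not tested), and 15 to 18 with a library left out. Without quiescent library 3 or 4 only 34 genes were tested. Pcna reversed under rescaling (-0.087 and -0.048), and Mcm5 ranged from -0.034 to 0.0092, reversing without quiescent library 3. Median-of-ratios rescaling moved the share of higher among all called genes to 50.6% from 86.0% for liver and to 43.3% from 58.6% for culture, and quantile normalisation to 54.7% and 48.2%. UDP-glucose gave 0 member calls under every alternative run, while 74 calls over all genes became 14 with a minimum log2 fold change of 1, 23 with all 13 libraries in 1 fit, 30 with no filter and 99 after quantile normalisation. Leaving out 1 library gave 20 to 64 calls, with 20 without UDP-glucose culture 2, 30 without UDP-glucose culture 1, 24 without UDP-glucose culture 3 or control culture 1, 64 without control culture 2 and 21 without control culture 3. The causes were not tested.

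Thinned to 1000 UMIs, shares of cells with a mitotic UMI were 6.59% in stellate-like, 9.95% in endothelial-like, 9.86% in Kupffer-like, 3.38% in hepatocyte-like, 10.3% in T cell-like, 7.45% in B cell-like, 4.05% in plasmacytoid dendritic cell-like, 4.72% in conventional dendritic cell and monocyte-like and 4.67% in erythroid-like cells. Without Cenpa, a choice made after seeing the data, they were 9.29% in stellate-like, 3.09% in endothelial-like, 10.3% in Kupffer-like, 2.85% in hepatocyte-like, 11.5% in T cell-like and 4.65% in B cell-like cells. In the other single-cell alternatives this share, of cells with at least 1 mitotic UMI, stayed within the intervals in each class that had a value, but the conventional dendritic cell and monocyte class got no value with at most 10% mitochondrial UMIs or with cell cycle genes kept in the clustering. The class of cells with at least 3 mitotic genes did depend on that last choice: 35 of the 52 then lay in 1 unnamed cluster of 36 cells, which left 1 of 343 T cell-like cells (0.292%). No paired analysis was possible because the labels give the groups no shared replicate numbers. Bulk depth is unknown, so low TPM values carry no stated precision.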
